A study of Mus musculus with 6 samples.

Results

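The genes that drive the cell cycle and copy DNA were followed in neonatal and adult mouse testis. The 44 genes examined were chosen by function, with earlier results of these data known. They comprise 10 cyclins, 12 kinases, phosphatases and inhibitors around the cyclins, 4 transcriptional regulators, 9 replication and proliferation genes, and 9 mitotic kinases and spindle checkpoint genes. A probe was assigned to a gene where its RefSeq accession maps to the gene's symbol. All 44 genes were represented, by 54 of the 22464 mRNA probes on the array, which name 19053 genes in all. For the 8 genes with several probes, the probe with the highest mean over the 6 arrays stands for the gene.

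RNA came from the whole testis of male C57/BL6 mice (C57BL/6 in the study's methods) aged 6 days (neonatal) or 8 weeks (adult). There were 3 arrays per age, and the labels name no treatment or altered allele. The study's methods describe each replicate as a group of animals of that age, so the arrays measure biological replicates that are not single mice. Polyadenylated RNA was copied with an oligo dT primer, labelled with Cy3 and read in 1 colour. Every array held 38031 spots that are not controls.

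Brightness differed between arrays: after background was subtracted, 75 of 100 spots lay below a signal of 2947, 2503 or 1385 (neonatal arrays, replicate 1 first) and of 1856, 1425 or 747.3 (adult arrays). Between 65.9% and 69.8% of spots were marked by the scanner software as well above background. The software also flags spots whose pixels or signal stand apart as outliers, which took 10.7%, 9.84% and 30.7% of spots on the neonatal arrays, against 8.32%, 6.11% and 25.4% on the adult arrays. Replicate 3 of both ages was scanned apart from the other 4 arrays and carries most of these flags. Values below are normalized log2 signals, which give each spot relative to the 75th percentile of its own array, with -7.22 as the lowest value allowed. A value of 0 is therefore the 75th percentile of an array, and a difference of 1 is a doubling. Outlier-flagged spots are included wherever values of single arrays are given.

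A dividing cell passes through a gap phase, DNA synthesis, another gap phase and mitosis, and each step is driven by a cyclin bound to a cyclin-dependent kinase. E2F factors switch on the genes of DNA synthesis, the MCM helicase opens the DNA at origins, and aurora and polo kinases with the spindle checkpoint part the chromosomes. In the testis, Sertoli cells and spermatogonia divide by mitosis soon after birth, whereas the adult testis also holds spermatocytes, which copy their DNA once and then divide in meiosis, and spermatids, which no longer divide.

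The labelled tissue was checked against markers of the cells a testis holds. The summed signal of 6 Sertoli cell genes, in units of the 75th percentile, was 46.4, 47.3 and 38.1 on the neonatal arrays and 13.7, 11.9 and 10.48 on the adult arrays. Wt1 was the brightest at both ages, and all 6 fell with flagged spots kept. The sum over 8 spermatogonial genes was 95.7, 105.7 and 93.2 against 20.6, 22.0 and 16.8, with Uchl1 brightest at both ages. Of these genes 6 of 7 tested fell with flagged spots kept, Gfra1 was not well above background at either age, and Nanos2 was not well above background in adult testis. For 8 spermatocyte genes the sum was 16.6, 13.7 and 10.3 in neonatal testis, where Sycp1 was brightest, and 90.1, 103.8 and 92.7 in adult testis, where Piwil1 was brightest. Of these, 6 of 8 rose with flagged spots kept and Dmc1 fell. The sum over 8 spermatid genes was 0.736, 0.771 and 0.859 in neonatal testis against 1170, 1395 and 1576 in adult testis, and all 8 rose, with Tnp1 brightest in neonatal and Prm2 in adult arrays.

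The other cell types were measured in the same way. The Leydig cell sum over 7 genes was 26.8, 28.6 and 25.5 against 81.4, 67.6 and 63.0, with Hsd3b1 brightest in neonatal and Insl3 in adult testis. With flagged spots kept, 4 of these 7 genes rose and 1 fell. Sums over 5 endothelial genes (8.49, 9.68 and 15.7 against 2.43, 2.07 and 3.54, Cdh5 brightest) and 5 peritubular genes (21.7, 22.0 and 27.0 against 4.79, 4.34 and 6.56, Myh11 brightest) were lower in adult testis, and 5 of 5 and 3 of 4 tested genes fell. Cnn1 was not well above background at either age. For 4 macrophage genes the sums were 5.46, 5.60 and 6.50 against 3.88, 4.01 and 5.80, with C1qa brightest and 1 of 4 genes lower. For 3 genes of all germ cells they were 43.8, 51.6 and 30.1 against 145.9, 168.0 and 137.2, with Mael brightest, 2 genes higher and 1 lower. Of 2 red blood cell genes, 1 rose and 1 fell, with sums of 4.67, 5.97 and 2.27 against 2.71, 2.53 and 2.06, and Hba-a1 was the brightest in neonatal and Alas2 in adult testis. The marker sums thus moved with age beside every result below, and their part in the changes of the cell cycle genes was not tested. In whole testis, fewer cells of a type and less RNA per cell cannot be told apart.

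Cell cycle genes moved in both directions between the ages. Of the genes tested, 3 of 5 replication genes were lower in adult testis, 5 of 8 mitotic kinase and checkpoint genes were higher, and the cyclin Ccna1 and the kinase Aurkc, known from germ cells, rose. Changes were tested with limma, with arrays of equal replicate number forming a block. A gene counts as changed when its p, adjusted by the Benjamini-Hochberg method over all lncRNA and mRNA probes, is no more than 0.05. With flagged spots left out, 34 of the 44 genes had the 2 complete pairs of arrays that the test needs. The fit rests on 3 pairs for 14 genes and on 2 pairs for 20. Of these 34, 12 rose (35.3%, against 32.8% of all 24517 tested probes), 16 fell (47.1%, against 41.5%) and 6 did not pass. The falls include E2f1, which was not well above background on any adult array. At least 5-fold changes were 3 rises (8.82%, against 15.4%) and 8 falls (23.5%, against 12.2%). With flagged spots kept, all 44 genes could be tested, and 15 rose (34.1%, against 32.9% of 29888 probes), 21 fell (47.7%, against 45.0%) and 8 did not pass. At least 5-fold changes were then 3 rises (6.82%, against 15.8%) and 11 falls (25.0%, against 13.7%).

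As a list, the 44 genes were called in either direction about as often as all probes, while falls of at least 5-fold made up a larger and rises of that size a smaller share than over all probes, a difference that was not tested. With no filter on dim probes falls of at least 5-fold were 4 of 34, and without replicate 2 they were 1 of 14. The share over all probes was not taken in these settings, so the larger share of falls is not known to hold there. The calls of the 34 genes tested both ways were the same in 34 of 34. The fits share most of their values, since 14 of these genes have no flagged spot and the other 20 keep the same 2 pairs. With no filter on dim probes 10 calls were lost, those of Ccnb3, Ccnd3, Ccne2, E2f1, Mcm2, Mcm4, Aurka, Aurkb, Bub1 and Mad2l1. The t-test of the methods, adjusted by the Benjamini-Hochberg method, lost these and also Ccnb1, Cdk4, Cdkn2d, Wee1, Cdc25c and Mcm7, 16 in all. Without adjustment it lost 12, the first 10 with Cdk4 and Wee1. Here this t-test left out flagged spots, a step the study's methods do not name. It therefore had only 2 pairs for 20 of the 34 genes, and its losses are not those of the study's own test. Of the 44 genes, 39 were well above background on all 6 arrays. The SD over the 3 arrays of an age had a median of 0.40 among the neonatal values and 0.41 among the adult values, with a highest value of 0.86 and 0.88.

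The scaling of the arrays sets where no change lies. The median log2 fold change over all tested probes was -0.21 with flagged spots left out and -0.30 with them kept. Over the members it was -0.20 (34 genes tested) and -0.35 (44 genes tested). Over all probes it was -0.45 after quantile normalization, -0.44 with a shift to the median, 0.26 after the normexp background correction and -0.60 on the authors' log2 values. Relative to the median of the fit, Rb1 lay at -0.12, Top2a at 0.14, Mcm7 at 0.65 and Ccnd3 at 1.01, so small changes of single genes are read against it. After the normexp correction the split of the 34 genes was 15 higher and 13 lower. It was 9 and 18 after quantile normalization and 9 and 16 with a shift to the median. Shares over all probes were not taken for these fits.

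**Figure D1:**
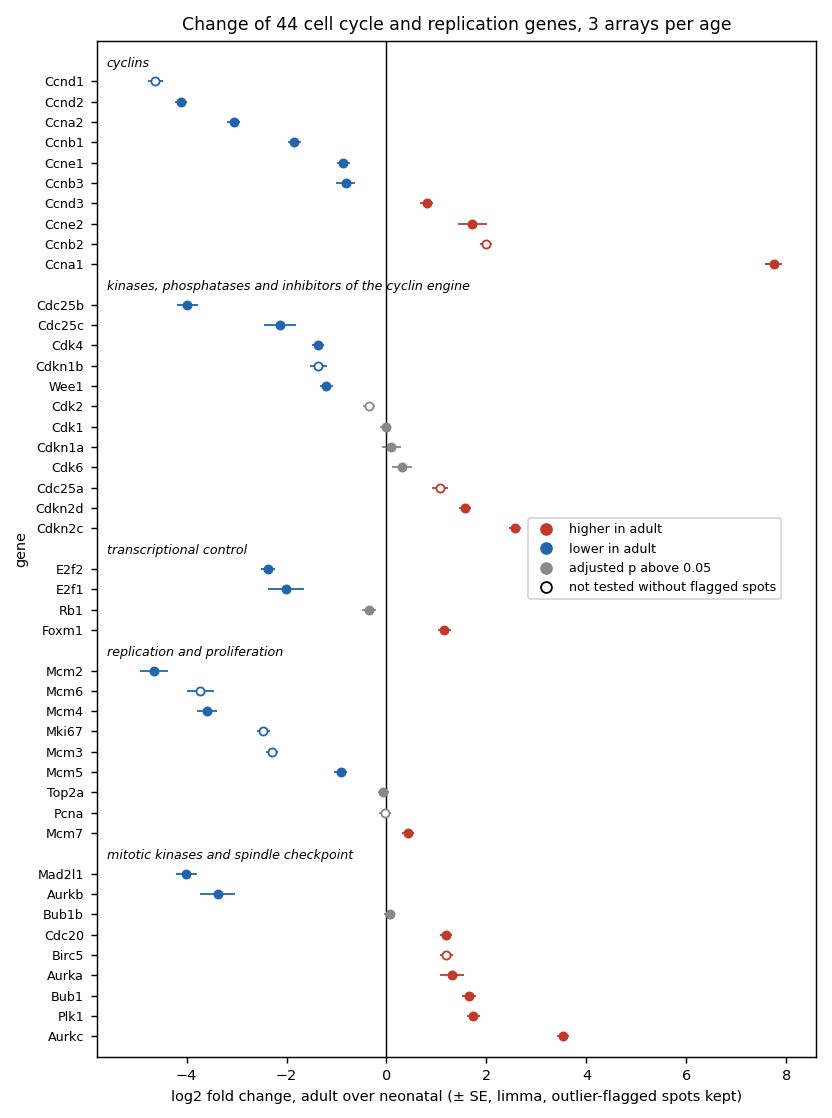
The log2 fold change of each of the 44 genes (x axis, adult over neonatal, limma with outlier-flagged spots kept, bars are standard errors, 3 arrays per age) is shown by role (y axis), red for genes that rose, blue for genes that fell and grey for those with an adjusted p above 0.05. Open circles mark the 10 genes that could not be tested with flagged spots left out, and Ccna1 stands at 7.75 while Mcm2 stands at -4.65.

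Among the cyclins, the A-type pair moved in opposite directions and by large amounts. Ccna2, the A-type cyclin of DNA synthesis and mitotic entry, fell 8.86-fold, whereas Ccna1, its relative that acts in male meiosis, rose 196.8-fold. D-type cyclins, which carry growth signals into the cycle, split: Ccnd1 and Ccnd2 fell at least 5-fold and Ccnd3 rose. In all, 3 of 8 tested cyclins rose (37.5%, against 32.8% of all probes) and 5 fell (62.5%, against 41.5%), so the share of rises was near that of all probes. The counts were 4 (40%, against 32.9%) and 6 (60%, against 45.0%) of 10 with flagged spots kept.

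Ccna1 (NM_007628, chr3:55045469-55057634 on GRCm38.p6) gave -2.87, -2.42 and -2.81 on the neonatal arrays, in the order of the replicates, against 4.98, 4.97 and 5.19 on the adult arrays. Each adult array lay more than 7 log2 units above each neonatal array. It rose by 7.62 log2 units (SE 0.19, adjusted p = 0.00027) in the 2 pairs without a flagged spot, and the difference in the pair of replicate 3, measured in the other scan, was 8.00. Ccna2 (NM_009828, chr3:36564865-36573038) gave 2.94, 3.15 and 3.46 on the neonatal arrays and -0.14, -0.07 and 0.58 on the adult arrays. The ages were far apart and the change was -3.15 log2 units (SE 0.14, adjusted p = 0.000787).

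Ccnd2 (NM_009829) gave 3.66, 3.77 and 4.60 in neonatal testis and -0.44, -0.27 and 0.41 in adult testis. Replicate 3 was the highest array of each age, the ages did not overlap, and the change was -4.08 log2 units (SE 0.14, adjusted p = 0.000451). Ccnd1 (NM_007631) gave -0.91, -1.25 and -0.94 against -5.27, -6.14 and -5.56. Its spots were flagged on all neonatal arrays, and with them kept it fell by 4.63 on the log2 scale (SE 0.15, adjusted p = 5.28e-05). The opposite was seen for Ccnd3 (NM_007632), at 2.58, 2.67 and 2.74 in neonatal and 3.53, 3.32 and 3.55 in adult testis. It rose by 0.79 (SE 0.16, adjusted p = 0.0227), and its other probes rose by 0.71 and 0.81. This call was lost after quantile normalization (0.45, adjusted p = 0.081).

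B-type cyclins, the partners of Cdk1 in mitosis, also split. Ccnb1 (NM_172301) gave 1.60, 1.92 and 2.48 on the neonatal and -0.09, 0.11 and 0.43 on the adult arrays, so each adult value lay below each neonatal value. Its log2 fold change was -1.75 (SE 0.14, adjusted p = 0.00249). Ccnb2 (NM_007630) was at 1.93, 2.29 and 1.69 against 3.96, 4.15 and 3.76. It could not be tested without its flagged spots, and with them kept it rose by 1.98 (SE 0.12, adjusted p = 0.000224), with no overlap of the ages. Ccnb3 (NM_183015), the B-type cyclin of meiotic germ cells, gave -0.43, -1.02 and -1.16 in neonatal and -1.66, -1.75 and -1.64 in adult testis, with a change of -0.98 (SE 0.20, adjusted p = 0.0226). With flagged spots kept its adjusted p was 0.0522 without replicate 1 and 0.0759 without replicate 2.

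The E-type cyclins, which start DNA synthesis with Cdk2, moved apart as well. Ccne1 (NM_007633) gave 1.63, 1.62 and 2.53 against 0.84, 0.85 and 1.49, with replicate 3 highest at each age. The fall of 0.86 on the log2 scale was seen in all 3 pairs (SE 0.11, adjusted p = 0.00341), although the fit with no replicate block did not pass (adjusted p = 0.0593). Ccne2 (NM_009830) gave -1.93, -2.57 and -2.28 in neonatal and -0.93, -0.22 and -0.48 in adult testis. All adult arrays were above all neonatal arrays, and the change was 1.68 log2 units (SE 0.41, adjusted p = 0.0342), or 0.91 for its other probe. The call of Ccne2 was lost without replicate 3 (adjusted p = 0.0789) and with a shift to the median (adjusted p = 0.0515).

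The kinases, phosphatases and inhibitors around the cyclins moved in both directions. Of 9 tested genes, 2 rose (22.2%, against 32.8% of all probes), 4 fell (44.4%, against 41.5%) and 3 did not pass, and with flagged spots kept the counts were 3 (25.0%, against 32.9%), 5 (41.7%, against 45.0%) and 4 of 12. Both genes that rose without flagged spots encode inhibitors of the Cdk4 and Cdk6 kinases, Cdkn2c and Cdkn2d. The falls comprised the kinase Cdk4 itself, the phosphatases Cdc25b and Cdc25c, which free cyclin-dependent kinases for mitosis, and Wee1, the kinase that restrains Cdk1.

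Cdkn2c (NM_007671), known as p18INK4c, gave 1.67, 1.85 and 2.49 on the neonatal and 4.18, 4.35 and 5.21 on the adult arrays. It rose 5.97-fold, and the difference was similar in each pair (log2 fold change 2.58, SE 0.11, adjusted p = 0.000212). The rise was under 5-fold after quantile normalization (2.18) and, narrowly, with a shift to the median (2.3209) and on the authors' log2 values (2.3166). Cdkn2d (NM_009878), known as p19INK4d, was at 2.56, 2.37 and 3.15 against 4.02, 4.07 and 4.71. Here too the ages did not overlap, and the change was 1.58 log2 units (SE 0.15, adjusted p = 0.00376). The inhibitor Cdkn1b (NM_009875), or p27, which holds Sertoli cell division in check in the maturing testis, gave 2.19, 2.15 and 1.37 against 0.46, 1.09 and 0.08. It fell by 1.36 (SE 0.17, adjusted p = 0.0022) when flagged spots were kept, and could not be tested without them. Cdkn1a, or p21, was dim, with values from -6.78 to -5.09 over the 6 arrays, and had an adjusted p of 0.656, while its other probe was at 0.43 with an adjusted p of 0.0562. After the normexp correction Cdkn1a passed, with 0.48 (adjusted p = 0.00843).

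Cdc25b (NM_023117) showed the largest change of the phosphatases, from -2.47, -2.11 and -2.05 in neonatal to -5.99, -6.50 and -6.10 in adult testis. It fell 15.8-fold (log2 fold change -3.98, SE 0.20, adjusted p = 0.000297), and its other probe fell by 3.79. Cdc25c (NM_009860) gave -3.51, -3.25 and -4.25 against -5.15, -6.25 and -6.02, a change of -2.14 (SE 0.32, adjusted p = 0.00476). Every adult array was below every neonatal array for both phosphatases. Cdc25a (NM_007658), which acts at the start of DNA synthesis, was the exception, at 2.03, 2.05 and 1.19 against 3.00, 2.88 and 2.59. Only testable with flagged spots kept, it rose by 1.07 (SE 0.16, adjusted p = 0.00389). After the normexp correction Cdc25b was at -1.57 (adjusted p = 0.00776), no longer 5-fold, and Cdc25c at -0.62 (adjusted p = 0.0784), and each was well above background on 2 of 3 adult arrays.

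Cdk4 (NM_009870), the partner of the D-type cyclins, gave 4.93, 4.93 and 4.78 in neonatal and 3.63, 3.40 and 3.49 in adult testis. It fell 2.67-fold (log2 fold change -1.42, SE 0.15, adjusted p = 0.00474), and after quantile normalization the log2 fold change was -2.18. Wee1 (NM_009516) was at 3.89, 3.84 and 4.86 against 2.68, 2.83 and 3.48, and fell 2.16-fold (SE 0.15, adjusted p = 0.00803). Cdk6 (NM_009873) gave -4.28, -4.38 and -4.0 against -4.41, -4.0 and -3.30, and the overlapping ages did not pass (0.32, adjusted p = 0.211), although after the normexp correction Cdk6 was called higher (0.41, adjusted p = 0.0329). Cdk2 (NM_183417) was flagged on all 6 arrays, with 3.35, 3.44 and 2.59 against 2.94, 2.98 and 2.40. Keeping its spots gave a change of -0.35 with an adjusted p of 0.0539, and of -0.71 with an adjusted p of 0.0151 when quantile normalization was added, a combination chosen after seeing the data. The probe of Cdk1 (NM_007659), the kinase of mitosis, was well above background on 1 of 6 arrays, so its level was not measured at either age.

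The transcriptional regulators of the cycle were fewer, and 2 of 4 fell (50%, against 41.5% of all probes) while 1 rose (25.0%, against 32.8%). The falls were the calls of E2f1 and E2f2, which activate the genes of DNA synthesis, and that of E2f1 rests on adult values at the floor. Foxm1, which activates genes of mitosis, was higher in adult testis. E2f2 (NM_177733) gave -0.21, 0.02 and 0.44 on the neonatal and -2.41, -2.61 and -1.83 on the adult arrays. It fell 5.15-fold (log2 fold change -2.37, SE 0.13, adjusted p = 0.000375) with no overlap of the ages, or by 2.06 log2 units, under 5-fold, after the normexp correction. E2f1 (NM_007891) gave -4.84, -4.59 and -6.19 in neonatal testis and was not well above background on any adult array. Its adult values stand at the floor, so its limma call (adjusted p = 0.00828) compares neonatal signal with the floor and measures no adult level. A lower bound that was not tested, with each adult array at the lowest signal of any lncRNA or mRNA probe well above background on it, puts the neonatal level at least 3.10-fold above the adult level. This bound did not hold after the normexp correction, where E2f1 was at -0.24 (adjusted p = 0.35). Its call was also lost with no filter on dim probes (adjusted p = 0.0641) and without replicate 1 (adjusted p = 0.103) or 2 (adjusted p = 0.0744).

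Foxm1 (NM_008021) gave 2.78, 2.73 and 2.73 against 3.84, 3.78 and 4.09. The neonatal arrays were nearly equal, and all adult arrays were higher by about 1 log2 unit (log2 fold change 1.06, SE 0.14, adjusted p = 0.00751). Rb1 (NM_009029), the retinoblastoma protein that holds E2F factors inactive, was at 1.92, 1.95 and 2.47 against 1.39, 1.81 and 2.08. Its ages overlapped and it did not pass (log2 fold change -0.33, SE 0.18, adjusted p = 0.184). On the authors' log2 values Rb1 had a log2 fold change of -0.61 with an adjusted p of 0.0246.

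Replication genes included large falls and 1 small rise. The helicase subunits Mcm2 and Mcm4 fell 27.5-fold and 12.2-fold, and of 5 genes tested without flagged spots 3 fell (60.0%, against 41.5% of all probes) and 1 rose (20.0%, against 32.8%). With flagged spots kept, 6 of 9 fell (66.7%, against 45.0%), 1 rose (11.1%, against 32.9%) and 2 did not pass, and the median log2 fold change of the 9 was -2.29. The subunits of the MCM ring act in equal numbers in the helicase, yet their probes changed by very different amounts. These probes also differ in brightness, with that of Mcm5 the dimmest at both ages, and the part of brightness in the size of the changes was not tested. Mcm7 was the 1 subunit that rose, and after quantile normalization it was called lower (-0.48, adjusted p = 0.0173).

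Mcm2 (NM_008564, chr6:88883474-88898780) gave 0.90, 1.14 and 0.81 in neonatal and -3.24, -4.28 and -3.58 in adult testis. The gap of about 4 log2 units or more was present in each pair, and 2 pairs entered the fit (log2 fold change -4.78, SE 0.39, adjusted p = 0.0025). Mcm4 (NM_008565) was at 1.72, 1.79 and 1.80 against -1.45, -2.25 and -1.77. The neonatal arrays lay close together and the adult arrays were all lower (log2 fold change -3.60, SE 0.28, adjusted p = 0.00232). Mcm6 (NM_008567) gave 3.97, 3.72 and 4.59 against -0.08, 0.71 and 0.49, and Mcm3 (NM_008563) gave 3.80, 3.71 and 4.42 against 1.68, 1.37 and 2.00. Both could be tested only with flagged spots kept, and then fell by 3.72 (SE 0.27, adjusted p = 0.000371) and by 2.29 (SE 0.12, adjusted p = 0.000178). The calls of Mcm2 and Mcm4 were lost with no filter on dim probes (adjusted p = 0.0633 and 0.0566). They were also lost with the t-test of the methods, which rested on 2 pairs here because flagged spots were left out.

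Mcm5 (NM_008566) changed least among the subunits that fell, from -4.05, -4.03 and -4.98 to -5.10, -5.01 and -5.69. Replicate 3 was the lowest at each age, and the fall of 0.91 on the log2 scale was found within each pair (SE 0.12, adjusted p = 0.00347). It was not called in the fit with no replicate block (adjusted p = 0.0524) or after the normexp correction (-0.08, adjusted p = 0.686). Mcm7 (NM_008568) gave 4.96, 5.05 and 5.73 against 5.43, 5.36 and 6.25, so neonatal replicate 3 lay above adult replicates 1 and 2. The rise of 0.44 (SE 0.11, adjusted p = 0.0221) rests on the paired comparison, and the fit with no replicate block gave an adjusted p of 0.289. Its direction turned after quantile normalization, at -0.48 (adjusted p = 0.0173), and the call was lost with a shift to the median (adjusted p = 0.205), on the authors' log2 values (adjusted p = 0.25) and without any 1 replicate.

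Pcna, the sliding clamp of DNA polymerase, and Top2a, the topoisomerase that untangles replicated DNA, did not pass. Pcna (NM_011045) was flagged on all arrays and gave 3.39, 3.30 and 2.73 against 3.52, 3.16 and 2.67, a change of -0.02 (SE 0.12, adjusted p = 0.861) with the spots kept. With quantile normalization added, a combination chosen after seeing the data, Pcna was called lower (-0.41, adjusted p = 0.0389). Top2a (NM_011623) gave 4.95, 4.89 and 5.73 against 4.80, 4.90 and 5.68, a change of -0.07 (SE 0.15, adjusted p = 0.681). The ages overlapped for both genes, and replicate 3 stood apart at both ages. After quantile normalization Top2a was called lower, at -0.98 (adjusted p = 0.00968). Mki67 (NM_001081117), the marker of cycling cells, gave 1.28, 1.22 and 1.34 against -1.11, -1.42 and -1.03. It fell 5.52-fold with flagged spots kept (log2 fold change -2.46, SE 0.12, adjusted p = 0.000151), with closely grouped arrays at each age.

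Mitotic kinases and checkpoint genes included rises and large falls. Of 8 tested, 5 rose (62.5%, against 32.8% of all probes), 2 fell (25.0%, against 41.5%) and 1 did not pass. In the fit with flagged spots kept 6 of 9 rose (66.7%, against 32.9%) and 2 fell (22.2%, against 45.0%), and the median log2 fold change was 1.20. Aurkc, the aurora kinase of germ cells, rose 11.6-fold and Plk1, the polo kinase of mitotic entry, 3.33-fold. Aurkb, the aurora kinase that corrects chromosome attachment in mitosis, and Mad2l1, the checkpoint protein that blocks anaphase, fell 10.3-fold and 16.0-fold.

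Aurkc (NM_001080966, chr7:6995347-7003091) gave -0.02, 0.03 and 0.94 on the neonatal and 3.42, 3.66 and 4.46 on the adult arrays. Replicate 3 was highest at each age and the ages were far apart (log2 fold change 3.53, SE 0.15, adjusted p = 0.000673). Another Aurkc probe (NM_001080965) rose by 3.58, and the dim probe NM_020572, at -6.97, -6.86 and -5.79 against -5.53, -5.45 and -4.73, rose by 1.30, which is under 5-fold. Aurkb (NM_011496, chr11:69045624-69051664) gave -0.89, -0.69 and -1.32 against -3.42, -4.88 and -4.73. The adult arrays were all lower, and they spread more than the neonatal arrays (log2 fold change -3.36, SE 0.49, adjusted p = 0.0101).

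Aurka (NM_011497), the aurora kinase of the spindle poles, was at -2.60, -2.50 and -2.73 in neonatal and -0.87, -1.79 and -1.24 in adult testis. It rose by 1.22 (SE 0.32, adjusted p = 0.0429), a call lost after quantile normalization (1.06, adjusted p = 0.0558), with a shift to the median (adjusted p = 0.053), with no floor (adjusted p = 0.0557) and without replicate 3 (adjusted p = 0.0883). Plk1 (NM_011121) gave 1.76, 2.00 and 2.94 against 3.67, 3.55 and 4.69, with all adult arrays above all neonatal arrays (log2 fold change 1.74, SE 0.12, adjusted p = 0.000616). Birc5 (NM_001012273), or survivin, the partner of Aurkb in the chromosomal passenger complex, was flagged on all arrays, at 2.51, 2.80 and 1.46 against 3.87, 3.85 and 2.65. With flagged spots kept it rose by 1.20 in the paired fit (SE 0.13, adjusted p = 0.00114), while with no replicate block its adjusted p was 0.0655, and the arrays of the ages overlapped. The other Birc5 probe, also flagged on all arrays, rose by 1.46 in the paired fit (adjusted p = 0.00183) with no overlap of the ages.

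The checkpoint genes did not move as 1 group. Mad2l1 (NM_019499, chr6:66535221-66541107) gave -0.99, -0.89 and -0.64 against -4.53, -5.35 and -4.65. No array of 1 age came near those of the other (log2 fold change -4.0, SE 0.30, adjusted p = 0.00206). Bub1 (NM_009772), the kinase that recruits checkpoint proteins to kinetochores, was at -1.42, -1.37 and -0.04 against 0.46, 0.11 and 1.53. It rose by 1.68 (SE 0.18, adjusted p = 0.00465), and its other probe by 1.39. Bub1b (NM_009773), or BubR1, gave 2.41, 2.51 and 3.51 against 2.53, 2.56 and 3.55, nearly the same numbers at both ages (log2 fold change 0.07, SE 0.10, adjusted p = 0.563). Cdc20 (NM_023223), the activator of the anaphase-promoting complex that the checkpoint inhibits, gave 3.14, 3.31 and 4.22 against 4.44, 4.41 and 5.37. It rose in every pair (log2 fold change 1.18, SE 0.11, adjusted p = 0.00115), and by 0.57 after quantile normalization (adjusted p = 0.0115). In limma fits with no block, the call of Cdc20 was lost without neonatal replicate 1 (adjusted p = 0.14) or 2 (adjusted p = 0.137). It was also lost there without adult replicate 1 (adjusted p = 0.0752), 2 (adjusted p = 0.0646) or 3 (adjusted p = 0.0997). With no filter on dim probes the calls of Mad2l1 (adjusted p = 0.0539), Aurkb (adjusted p = 0.129) and Bub1 (adjusted p = 0.0562) were lost. They were also lost with the t-test of the methods, which rested on 2 pairs for each because flagged spots were left out. After the normexp correction Mad2l1 was at -2.82 and Aurkb at -2.70.

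Replicate 3 of both ages stood above the other replicates for Plk1, Bub1, Bub1b and Cdc20, and below them for Birc5 and Pcna. These arrays form the other scan, which holds 1 pair. The difference between the ages was close in both scans for Plk1, with 1.73 as the mean of the pairs in the first scan and 1.75 in the other, and for Cdc20, with 1.20 and 1.16. For E2f1, whose adult values stand at the floor, it was not, with -2.51 and -1.04. Genes above the floor also differed between the scans, among them Ccnb3 (-0.98 and -0.47), Cdk6 (0.12 and 0.70) and Cdc25a (0.90 and 1.41). Over all 44 genes the sign was the same for 42. With the scan as a block in place of the replicate number, 12 genes were higher and 16 lower.

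Contrasting paralogues on the same array removes what an array does to both probes alike. The value of each pair is the log2 signal of the first gene minus that of the second. Because probes differ in brightness, only its change between the ages is read. With 3 arrays against 3, the two-sided exact permutation test cannot give a p below 0.10, so none of the 7 pairs could reach 0.05. This test does not use the pairing of replicates, so the change within each replicate is given beside it.

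Ccna1 moved most against its mitotic relative. The difference Ccna1 minus Ccna2 changed by 10.93, 10.61 and 10.88 from neonatal to adult testis in replicates 1 to 3, on average 10.81, a 1790-fold shift in their ratio. Its exact p was 0.1, the smallest the design allows, and 0.14 after Benjamini-Hochberg adjustment over the 7 pairs. The adult arrays all lay above the neonatal arrays, by a margin far larger than the spread of either age.

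Aurkc rose against both of its mitotic relatives. Aurkc minus Aurkb changed by 5.96, 7.83 and 6.93 in replicates 1 to 3, on average 6.90, and Aurkc minus Aurka by 1.70, 2.92 and 2.03, on average 2.22. Both had an exact p of 0.1 (adjusted 0.14) and no overlap of the ages, and the shift against Aurka was smaller as Aurka also rose.

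Ccne1 minus Ccne2 changed by -1.79, -3.12 and -2.83 in replicates 1 to 3, on average -2.58, and Cdkn2d minus Cdkn2c by -1.06, -0.80 and -1.16, on average -1.0. Each had an exact p of 0.1 (adjusted 0.14), the smallest possible. Ccnb3 minus Ccnb1 changed by 0.45, 1.08 and 1.57 in replicates 1 to 3, on average 1.03 (exact p = 0.2, adjusted 0.233) with overlapping ages, and both genes fell. Ccnd2 minus Ccnd1 changed by 0.26, 0.84 and 0.44, on average 0.51 (exact p = 0.3, adjusted 0.3), and after the normexp correction by -1.10, so the order of these changes turned with the processing.

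**Figure D2:**
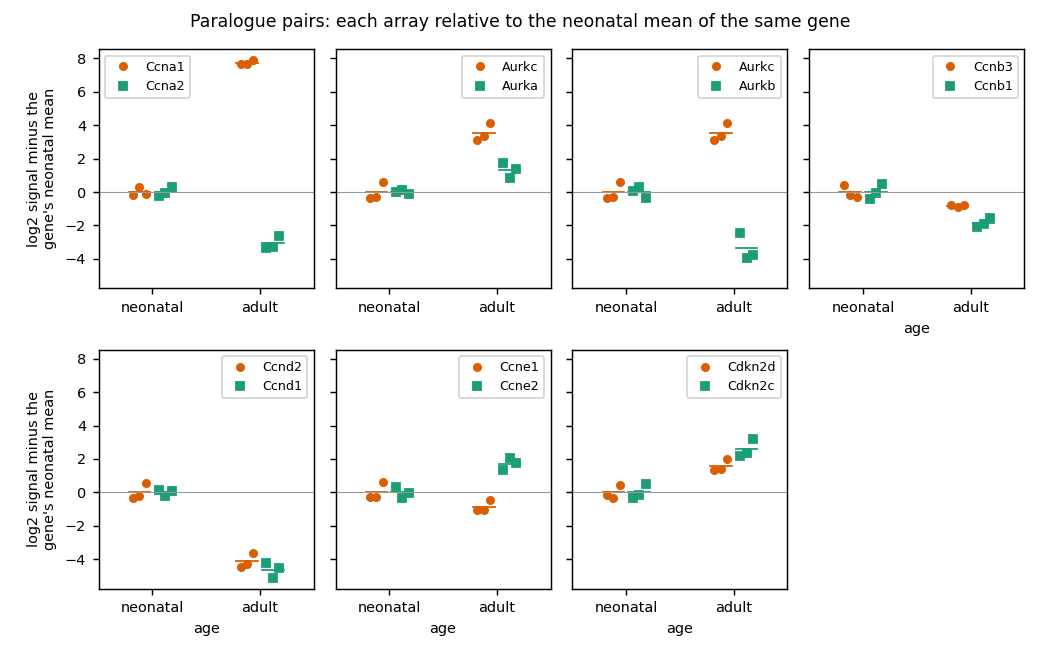
Each panel shows the normalized log2 signal of a pair of paralogues on the 6 arrays (x axis, age; y axis, log2 signal minus the neonatal mean of the same gene; points are arrays and lines are means, 3 arrays per age). Ccna1 rises while Ccna2 falls, Aurkc rises more than Aurka, and Ccnd1 and Ccnd2 fall together.

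Further genes of the same processes were taken from lists chosen by function, with earlier results of these data known. Of 46 other replication genes 45 had a probe and 29 could be tested, and 18 of these fell (62.1%, against 41.5% of all probes) while 2 rose (6.90%, against 32.8%). With flagged spots left out the falls were led by Tk1, which makes thymidine monophosphate (log2 fold change -3.59, adjusted p = 0.00068), and the catalytic polymerase subunit Pold1 (-3.55, adjusted p = 0.00413). The genes that rose were Chaf1a, a subunit of the chromatin assembly factor (2.36, adjusted p = 0.00236), and the polymerase subunit Pold3 (0.53, adjusted p = 0.0415). Keeping flagged spots gave 26 falls (57.8%, against 45.0% of all probes) and 5 rises (11.1%, against 32.9%) among 45, and the largest fall was then that of Cdt1, the licensing factor that loads the helicase (-5.57, adjusted p = 0.000503). The median log2 fold change of the 29 genes was -0.97, beside -0.21 over all probes.

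Other spindle and kinetochore genes were split evenly. Of 34 genes 26 could be tested, and 12 rose (46.2%, against 32.8% of all probes) and 10 fell (38.5%, against 41.5%), with a median log2 fold change of 0.23. Haspin, the histone kinase that marks centromeres in mitosis, rose most in this fit, by 6.34 (adjusted p = 0.000224), followed by the kinetochore protein Cenpf (2.72, adjusted p = 0.000226) and the centromere guardian Sgol2 (1.63, adjusted p = 0.000809). Its relative Sgol1 fell by 2.43 (adjusted p = 0.00126), the spindle factor Tpx2 by 2.21 (adjusted p = 0.000604) and the cohesin protector Cdca5 by 1.06 (adjusted p = 0.00959). Among the 33 testable with flagged spots kept, 14 rose (42.4%, against 32.9% of all probes) and 15 fell (45.5%, against 45.0%, so no more often than all probes), and the largest fall was then that of the centromeric histone Cenpa (-3.73, adjusted p = 0.000131).

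Of 34 other cyclins, kinases and regulators 23 could be tested, with 4 rises (17.4%, against 32.8% of all probes) and 13 falls (56.5%, against 41.5%). Trp53, the p53 protein (-3.33, adjusted p = 0.000999), Plk3 (-3.14, adjusted p = 0.00164) and Fbxo5, an inhibitor of the anaphase-promoting complex (-2.71, adjusted p = 0.000995), fell most in the fit with flagged spots left out. Its rises were led by Lin52 (1.22, adjusted p = 0.00818), E2f8 (1.22, adjusted p = 0.00535) and Lin9 (1.18, adjusted p = 0.0103), of which Lin52 and Lin9 are subunits of the MuvB complex that controls cell cycle genes. All 34 could be tested with flagged spots kept, and 8 rose (23.5%, against 32.9% of all probes) and 18 fell (52.9%, against 45.0%), with the largest rise that of the inhibitor Cdkn1c (3.19, adjusted p = 0.00031). Among 11 germ-cell and meiotic cell cycle genes, 10 had a probe and 7 could be tested, of which 4 rose (57.1%, against 32.8% of all probes) and 1 fell (14.3%, against 41.5%). Spdya, an activator of Cdk2 in meiosis, rose by 4.23 (adjusted p = 0.00133), the meiotic transcription factor Mybl1 by 1.55 (adjusted p = 0.0247) and the meiotic cohesin Smc1b by 1.13 (adjusted p = 0.0071). Mcm8, a relative of the MCM helicase that acts in recombination, fell by 0.89 (adjusted p = 0.0361). When flagged spots were kept, 7 of 9 rose (77.8%, against 32.9% of all probes) and 1 fell (11.1%, against 45.0%).

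Promoter sequences were examined to show which letters genes that moved in the same direction hold near their start. RefSeq sequences of 300 bases around the start, most of them before it, were held for 34 of the 44 genes (39 promoters, build GRCm38.p6). The following motifs were searched on both strands, each on its own so that matches can overlap: an E2F site (TTTCCCGC, TTTCGCGC, TTTGCCGC or TTTGGCGC), the CCAAT box (CCAAT) and the CHR element of mitotic genes (TTTGAA or TTCGAA). An E2F site was found in 8 of 39 promoters (20.5%, against 2.26% of all 32851 promoters), a CCAAT box in 28 (71.8%, against 37.4%) and a CHR element in 13 (33.3%, against 19.2%). Among replication and proliferation genes, 9 of 9 promoters held a CCAAT box, 4 of 9 an E2F site and 4 of 9 a CHR element. Of the 8 promoters of mitotic and checkpoint genes, 5 held a CHR element, 6 a CCAAT box and 0 an E2F site. When only the bases before the start were searched, 2 of these 8 held a CHR element (25.0%, against 17.1% of all promoters). Of the 9 replication and proliferation promoters, 4 (44.4%) held one there. Among genes that fell with flagged spots kept an E2F site was found in 4 of 15 promoters (2 of 15 before the start only). Among genes that rose it was found in 2 of 16 (also 2 of 16 before the start only). A CCAAT box was held by 10 of 15 promoters of genes that fell and 13 of 16 of genes that rose. For the CHR element the counts were 4 of 15 and 6 of 16, or 3 of 15 and 3 of 16 before the start only. A match is a run of letters, and a promoter without one says only that these letters are not in this window.

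The 200 bases before the start are shown for the MCM genes with a promoter held, since the probes of these genes changed to different extents. Mcm7 rose with the 75th percentile scaling but was called lower after quantile normalization (-0.48). Capitals mark matches to the motifs on either strand. The regions are chr6:88898781-88898980 (minus strand) for Mcm2, chr1:20820313-20820512 (minus) for Mcm3, chr8:75109309-75109508 (plus) for Mcm5, chr1:128359706-128359905 (minus) for Mcm6 and chr5:138171884-138172083 (minus) for the start of Mcm7 that holds an E2F site. Mcm5 and Mcm6 hold an E2F site here, while Mcm2 and Mcm3 do not. The other start of Mcm7 (chr5:138171267-138171466, minus) holds only a CCAAT box, so an E2F site is found at 1 of its 2 starts.
Mcm2: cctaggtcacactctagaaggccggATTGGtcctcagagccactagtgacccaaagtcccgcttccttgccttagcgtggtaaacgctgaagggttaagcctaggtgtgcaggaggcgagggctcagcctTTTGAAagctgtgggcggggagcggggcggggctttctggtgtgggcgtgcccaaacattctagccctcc
Mcm3: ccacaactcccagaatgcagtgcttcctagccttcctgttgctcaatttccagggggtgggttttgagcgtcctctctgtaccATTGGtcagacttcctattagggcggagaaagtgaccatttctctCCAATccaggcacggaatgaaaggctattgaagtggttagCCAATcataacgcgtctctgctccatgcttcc
Mcm5: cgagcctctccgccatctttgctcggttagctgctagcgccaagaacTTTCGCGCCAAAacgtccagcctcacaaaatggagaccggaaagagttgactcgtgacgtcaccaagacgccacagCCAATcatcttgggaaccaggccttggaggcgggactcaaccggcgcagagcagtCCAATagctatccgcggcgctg
Mcm6: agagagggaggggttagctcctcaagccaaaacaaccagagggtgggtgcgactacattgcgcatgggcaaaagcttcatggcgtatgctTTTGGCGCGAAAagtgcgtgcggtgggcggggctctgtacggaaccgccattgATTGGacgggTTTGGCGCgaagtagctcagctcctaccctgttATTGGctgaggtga
Mcm7: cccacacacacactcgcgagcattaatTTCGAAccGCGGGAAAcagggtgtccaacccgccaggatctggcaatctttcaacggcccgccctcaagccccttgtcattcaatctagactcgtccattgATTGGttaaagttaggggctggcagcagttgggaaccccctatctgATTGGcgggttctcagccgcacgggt

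For genes that rose, the same stretch is shown for Plk1 (chr7:122159235-122159434, plus strand), Bub1 (chr2:127831860-127832059, minus) and Cdc20 (chr4:118437344-118437543, minus), each with a CCAAT box close to the start. The promoters of the germ-cell paralogues, Ccna1 (chr3:55055056-55055255, minus, before a start inside the gene) and Aurkc (chr7:6995185-6995384, plus), follow as the genes with the largest rises. Ccna1 holds 1 CCAAT box in this stretch and Aurkc holds none of the motifs.
Plk1: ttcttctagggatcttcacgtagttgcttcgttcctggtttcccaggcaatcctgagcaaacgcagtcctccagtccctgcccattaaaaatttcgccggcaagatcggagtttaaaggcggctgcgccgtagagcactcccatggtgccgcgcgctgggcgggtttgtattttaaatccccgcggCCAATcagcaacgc
Bub1: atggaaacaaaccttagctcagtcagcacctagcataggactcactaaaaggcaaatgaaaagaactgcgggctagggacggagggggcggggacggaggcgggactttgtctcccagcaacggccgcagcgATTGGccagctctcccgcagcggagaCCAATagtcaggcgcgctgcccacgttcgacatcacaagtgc
Cdc20: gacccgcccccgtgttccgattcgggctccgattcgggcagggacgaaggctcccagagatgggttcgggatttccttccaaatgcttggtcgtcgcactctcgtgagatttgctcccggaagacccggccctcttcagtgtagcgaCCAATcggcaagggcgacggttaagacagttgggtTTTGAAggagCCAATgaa
Ccna1: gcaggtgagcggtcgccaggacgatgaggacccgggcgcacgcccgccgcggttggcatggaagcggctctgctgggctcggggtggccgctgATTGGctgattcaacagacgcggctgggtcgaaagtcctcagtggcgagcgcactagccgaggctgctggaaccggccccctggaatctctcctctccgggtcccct
Aurkc: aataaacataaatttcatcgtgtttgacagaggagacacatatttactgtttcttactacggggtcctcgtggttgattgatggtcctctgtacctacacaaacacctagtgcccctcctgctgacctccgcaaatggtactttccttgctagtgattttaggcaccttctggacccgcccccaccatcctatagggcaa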

How the data were processed

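The study's scanner files hold Feature Extraction 10.5.1.1 intensities as deposited, with local background subtracted per the file headers. The authors' deposited log2 values cover 26828 probes, and on every array 99.8% of them differ by less than 0.001 from log2 signals, with 5 as the lowest signal, shifted by one constant per array. The study's methods name background correction and quantile normalization, and a shift by a constant per array is not quantile normalization. The medians of the deposited values per array were 1.28, 1.30, 1.27, 1.20, 1.27 and 1.22, and the reason for that centring is unknown. Here signals were floored at 5, divided by the 75th percentile of their array, taken to log2 with a common lowest value of -7.22, and tested in R 4.3.3 with limma 3.58.1, blocking on replicate and requiring at least 2 complete pairs. Tables were made in Python 3.11.15 with numpy 2.4.6. Deviations from the mean of an age, over all tested probes, correlated between neonatal and adult arrays of the same number at 0.341, 0.248 and 0.587, against 0.323 and 0.286 for other arrays of the same scan, so the pairing beyond the scan was not shown. The normexp alternative used median spot signal, because the files hold no mean signal, with an offset of 50. Of 22464 mRNA probes 21905 had a symbol. Genes and lists were chosen with earlier results of these data known. Genes were named when they belong to the 44, or have the largest changes of a list.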

Additional observations from a re-analysis of the deposited data

How the results depend on the processing

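Counts of the 44 genes depended on settings, and unless stated the cause was not tested. Shares over all probes were taken only for the main fit and the fit with flagged spots kept on all arrays. Counts in the other settings are therefore not read against all probes. Against 12 higher, 16 lower and 8 at least 5-fold lower, lower genes numbered 10 (at least 5-fold, 4) with no filter on dim probes. With the t-test of the methods, run with flagged spots left out, higher and lower genes numbered 6 and 6 (5-fold lower, 4) after Benjamini-Hochberg adjustment. Without adjustment 8 were lower (5-fold lower, 4). The authors' log2 values gave 14 at least 5-fold lower of 41 tested, against 11 of 44 with flagged spots kept. A cutoff of 2-fold in place of 5-fold gave 10 higher and 13 lower. Leaving out a replicate gave 3 to 9 higher, 5 to 16 lower, 1 to 3 at least 5-fold higher and 1 to 10 at least 5-fold lower, with 14 genes tested without replicate 1 or 2 and 34 without replicate 3. Leaving out single arrays with no block gave 3 to 11 higher, 4 to 15 lower, 2 to 3 at least 5-fold higher and 2 to 9 at least 5-fold lower. In fits chosen after seeing the data, keeping flagged spots and leaving out a replicate gave 10 to 13 at least 5-fold lower, and keeping them with quantile normalization gave 26 lower and 13 at least 5-fold lower. Among other pathway genes, 34 were higher with flagged spots kept against 22, where more genes were tested. Cdk1 was at 0.57 after normexp against -0.01 and was then called higher (adjusted p = 0.00401), although its level was not measured at either age. Directions turned for Cdk1 (normexp), Mcm7 (-0.48, quantile normalization, with flagged spots left out or kept) and Ccnd2 minus Ccnd1 (-1.10, normexp).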
